A study of Mus musculus with 24 samples.

Results

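RNA from the hippocampus (HC) of 14-day-old (P14) male mice was compared between 16GsoT/T homozygotes and wild type (WT) animals. The comparison used 6 of the 24 libraries of the study, 3 from 16GsoT/T (A13, A14 and A18) and 3 from WT (N4, N5 and N6), and was chosen by genotype, age and region from the sample labels. Of the 25793 genes in the table, 15227 had enough reads to be tested. The 16Gso mutation is a reciprocal translocation between chromosomes 5 and 8 that arose in offspring of males given bis-acrylamide. It breaks chromosome 5 between *Galnt17* and *Auts2* and chromosome 8 upstream of *Sox1*, and it is a single rearrangement carried by every cell from conception. The labels list the strain of both groups as C57BL/6, while the titles of the WT samples read B6C3 and the study's methods place the mice on that mixed background of C57BL/6 and C3H/He. No treatment is listed for either group. Each library carries an identifier of its own, and no pooling is described.

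*Galnt17*, which the deposited table lists under its older symbol *Wbscr17*, encodes a member of the enzyme family that starts O-linked sugar chains by adding N-acetylgalactosamine to proteins. *Auts2* encodes a nuclear and cytoplasmic protein that takes part in gene regulation and in the shaping of neurites, and its human counterpart is mutated in a syndrome with intellectual disability and features of autism. The HC holds pyramidal neurons of the CA fields, granule cells of the dentate gyrus, interneurons and glia, and in mice of this age granule cells are still being added and myelin is being formed.

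The WT libraries held between 10572358 and 10982100 reads on genes and the 16GsoT/T libraries between 12267205 and 13245150. Levels are given as reads of a gene per 1e6 reads on genes (CPM) after scaling, in the order N4, N5, N6 for WT and A13, A14, A18 for 16GsoT/T, and fold changes are log2 of 16GsoT/T over WT ± SE (n = 3 libraries a group) with adjusted p from the quasi-likelihood test of edgeR. A differentially expressed gene (DEG) had an adjusted p of at most 0.05. The labels put all WT libraries on lane 1 and all 16GsoT/T libraries on lane 2 of a sequencer, and the effect of the lane cannot be told apart from that of genotype in any value below. In bulk tissue, fewer cells of a type and less RNA in each cell cannot be told apart either.

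The tissue carried markers of CA1 in every library. Sums over lists are given without the scaling. A list of 8 CA1 genes summed to between 589 and 858 CPM in the 6 libraries, against 71.3 to 91.6 CPM in the P14 cerebellum (CB) libraries. The CA3 list was higher in HC as well (776 to 818 against 469 to 531 CPM), and the CA2 list overlapped between the regions. Other lists were higher in CB. The dentate granule cell list was at 868 to 1212 CPM in HC and 2433 to 2670 CPM in CB. The mossy cell list was at 131 to 194 CPM in HC and 455 to 585 CPM in CB. Markers of neighbouring tissue were less even. A list of striatal genes summed to 2209 CPM in N4 and to between 1008 and 1114 CPM in the other 5 libraries. The cortical list was highest in N6, at 993 CPM against 612 to 766 CPM elsewhere. The choroid plexus list summed to 1695 CPM in A13, 2571 in A14 and 1337 in N5, and to 301 in A18 and 347 in N6. The plot of summed levels of marker lists shows these differences by library.

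**Figure D1:**
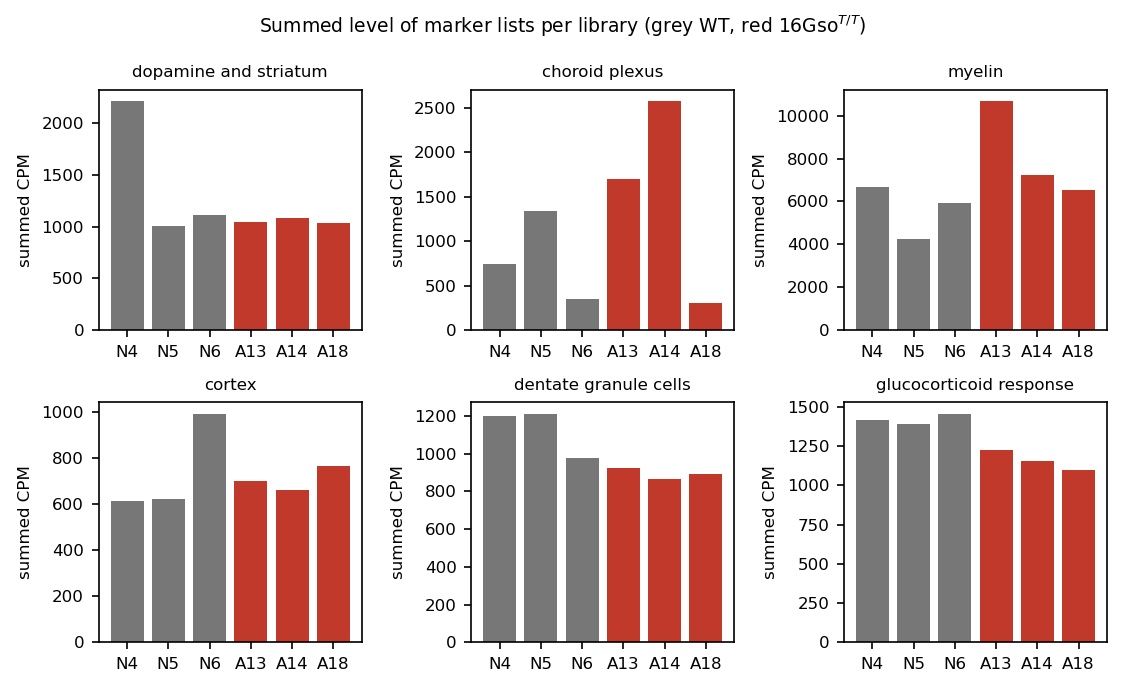
Summed CPM of the genes of 6 lists (vertical axes, reads per 1e6 reads on genes, unscaled, starting at 0) in each of the 6 P14 HC libraries (WT in grey, 16GsoT/T in red). N4 stands above the other libraries for striatal genes, A13 and A14 for choroid plexus genes and A13 for myelin genes, while the glucocorticoid response list is lower in every 16GsoT/T library than in every WT library.

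The level of 124 genes differed between the genotypes, which is 0.814% of those tested. Of these, 55 rose (0.361%) and 69 fell (0.453%), by a median of 1.53-fold, and 72 of the 124 changed by at least 1.5-fold. All 124 had groups that did not overlap, a state found in 23.8% of all genes tested. An unadjusted p below 0.05 was found for 2669 of the 15227 genes, 1313 with a higher and 1356 with a lower mean. The number of DEGs rested on single libraries: it was 13 without A14, 18 without N4, 21 without A13, 33 without N5, 113 without N6 and 114 without A18, and 8 genes were called in all of these 6 fits. Of the 113 called without N6, 63 were among the 124, as were 59 of the 114 called without A18. Another 46 of the 124 were called in none of the 6 fits. Leaving out 2 libraries at once, a choice made after seeing the data, left 3 DEGs without N4 and N6 and 11 without A13 and A14. The 8 were *Grin2b*, which rose, and *Eif2s3y*, *Kdm5d*, *Hbegf*, *Myo7a*, *Htra1*, *Gm8615* and *Gm5801*, which fell. *Htra1* and *Gm5801* were picked for naming after their values were seen. Other tests called more genes. DESeq2 called 397 of 15726 (159 higher, 238 lower) and the exact test of edgeR 533 of 15227 (256 higher, 277 lower). Counts from these tests in the lists below stand against those totals.

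**Figure D2:**
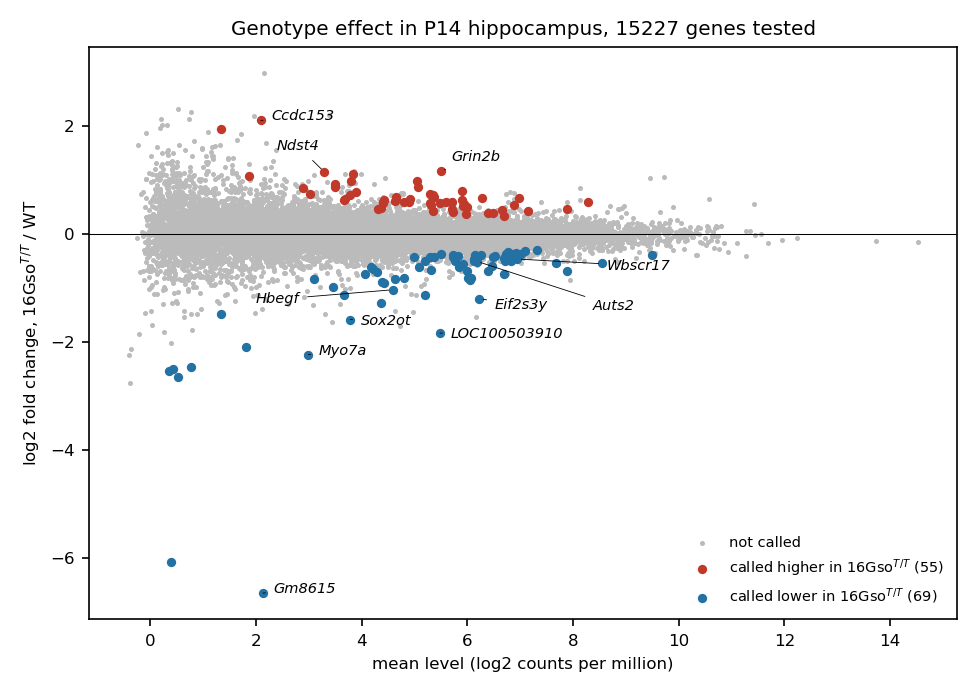
Log2 fold change of 16GsoT/T over WT (vertical axis) against mean level in log2 CPM (horizontal axis) for the 15227 genes tested in P14 HC, with 55 genes called higher in red, 69 called lower in blue and a selection of them labelled. Most called genes lie within 1 log2 unit of no change, and *Gm8615* lies lowest.

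The size of the change moved with the base composition of the transcripts. Across the 13876 tested genes with a position in the annotation, the median log2 fold change was 0.13 where the exons held under 40% G and C, and -0.07 where they held 55% or more (Spearman's rho -0.30 across genes, which are not independent replicates). The median GC content was 50.2% for all of these genes, 45.5% for the DEGs that rose and 53.9% for those that fell. A fit with offsets for GC content and length in each library tested only these 13876 genes, which left out the DEGs without a position in the annotation. In it 72 genes were DEGs, and 64 of them were among the 124. Whether the trend follows the lane or the genotype cannot be told apart.

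**Figure D3:**
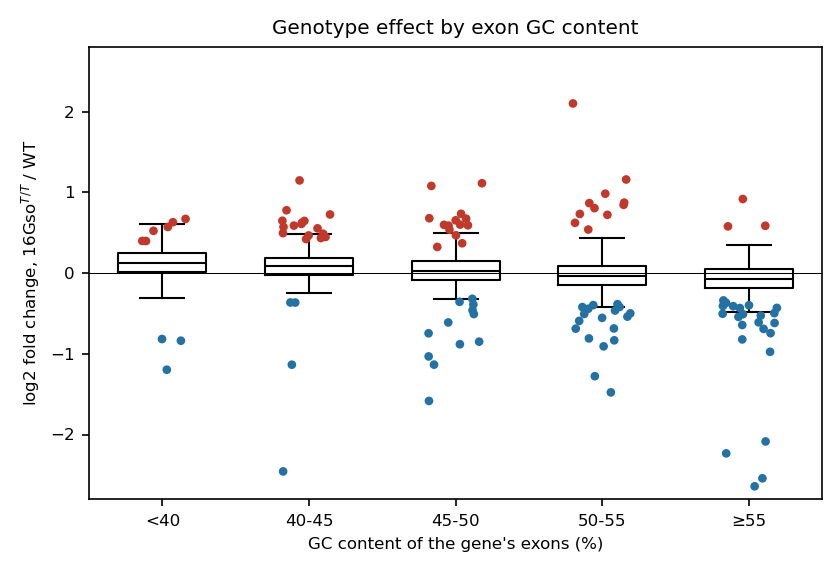
Log2 fold change (vertical axis) of tested genes grouped by the GC content of their exons in percent (horizontal axis). Boxes span the quartiles with the median as a line, whiskers run from the 5th to the 95th percentile, and points are DEGs (red higher, blue lower; *Gm8615* and *Gm5801* lie below the axis). Medians go from 0.13 at the lowest GC content to -0.07 at the highest.

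Both genes that flank the chromosome 5 breakpoint fell. *Wbscr17* (*Galnt17*) lies on the minus strand at chr5:131347952-131783948 and *Auts2* on the same strand at chr5:131913205-133019214 (NCBIM37), with 129 kb between them. *Wbscr17* was at 145, 147 and 136 CPM in WT and at 101, 107 and 103 CPM in 16GsoT/T. The groups did not overlap, and the level fell by 0.46 ± 0.06 on the log2 scale (adjusted p = 0.016). *Auts2* was at 86.5, 93.4 and 75.3 CPM in WT and at 61.9, 59.6 and 58.1 CPM in 16GsoT/T, again without overlap. It fell by 0.51 ± 0.08 (adjusted p = 0.042). With the offsets for GC content and length *Wbscr17* remained below the threshold (adjusted p = 0.033) and *Auts2* did not (adjusted p = 0.082). Dropping 1 library at a time, *Wbscr17* was called in 2 of 6 fits, with log2 fold changes from -0.50 to -0.44. *Auts2* was called in 1 of 6, with log2 fold changes from -0.59 to -0.44.

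The other neighbours were not DEGs. *Caln1*, which encodes a neuronal calcium-binding protein and lies beyond *Galnt17*, was at 46.0, 60.7 and 43.6 CPM in WT and at 64.6, 77.4 and 57.7 CPM in 16GsoT/T, with overlap (0.41 ± 0.14, adjusted p = 0.196). *Sox1*, a transcription factor of neural progenitors next to the chromosome 8 breakpoint, was at 15.9, 14.6 and 13.3 CPM in WT and at 22.2, 16.7 and 18.1 CPM in 16GsoT/T. Its groups did not overlap, but the difference of 0.38 ± 0.13 had an adjusted p of 0.179.

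The distances in the next sentences were chosen after the DEGs had been seen, and DEGs made up 0.814% of all genes tested and 0.933% of those on chromosome 5. Within 5 Mb of the middle of the interval between the 2 genes, 79 genes were tested, and *Wbscr17* and *Auts2* were the DEGs among them. Within 10 Mb there were 230 tested genes and 5 DEGs (2.17%). The additional ones were *Pitpnm2*, *Sbno1* and *Actl6b*, named after their values were seen, and all of them fell. *Pitpnm2*, at chr5:124568699-124699769 on the minus strand, was at 229, 242 and 262 CPM in WT and at 167, 169 and 167 CPM in 16GsoT/T (log2 fold change -0.54 ± 0.06, adjusted p = 0.014). Within 20 Mb, 6 of 408 genes were DEGs (1.47%).

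Among 25 tested genes of the list of N-acetylgalactosamine transferases and related enzymes of O-linked sugar chains, *Wbscr17* was the DEG. Of the 25, 13 had a higher and 12 a lower mean in 16GsoT/T, with a median log2 fold change of 0.02 against 0.0023 for all genes tested. Of 26 tested genes for the synthesis of heparan sulfate, a sulfated sugar chain of the cell surface and matrix, 2 rose and none fell. *Ndst4*, an enzyme that removes acetyl groups from the chain and adds sulfate, was at 7.501, 5.37 and 4.87 CPM in WT and at 13.7, 11.8 and 13.7 CPM in 16GsoT/T (1.15 ± 0.17, adjusted p = 0.030). Every 16GsoT/T library stood above every WT library. *Xylt1*, which attaches the first sugar of the chain, rose by 0.58 ± 0.10 (adjusted p = 0.048). With 1 library dropped, *Ndst4* was called in 1 of 6 fits and *Xylt1* in 0 of 6. The median of the list was 0.01.

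**Figure D4:**
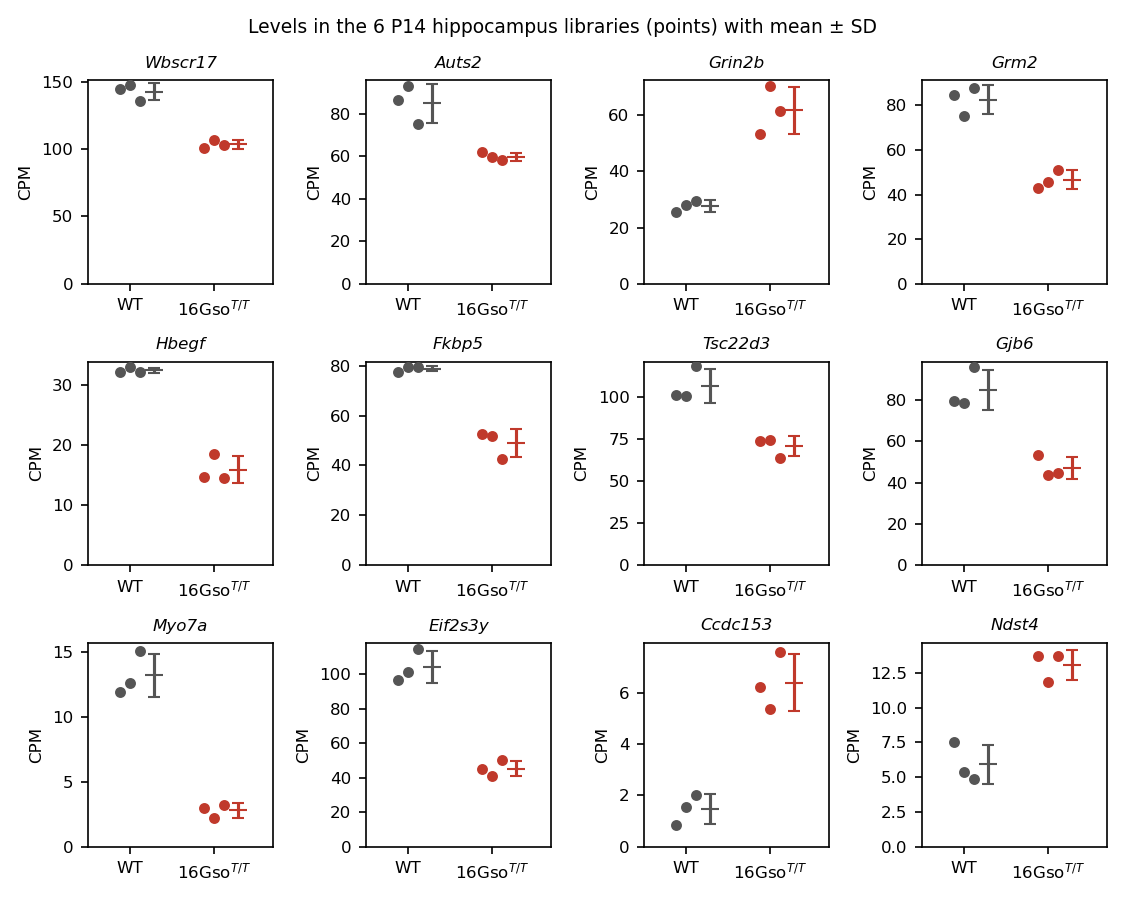
CPM (vertical axes, each from 0) of 12 genes in the 3 WT (grey) and 3 16GsoT/T (red) libraries of P14 HC, with points for libraries and bars for mean ± SD. The groups do not overlap for any of them, and *Grin2b*, *Ccdc153* and *Ndst4* are the genes that are higher in 16GsoT/T.

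Of 25 tested glutamate receptor genes, 1 rose and 1 fell in the quasi-likelihood test, and the median log2 fold change was -0.03. *Grin2b*, an NMDA receptor subunit that is prominent in the young forebrain, was at 25.4, 27.9 and 29.5 CPM in WT and at 53.4, 70.3 and 61.3 CPM in 16GsoT/T. It rose by 1.16 ± 0.11 (adjusted p = 0.0070) and was called in each fit that left out 1 library, but not in the fit without both N4 and N6. *Grm2*, a metabotropic receptor that dampens glutamate release and is found on granule cells, was at 84.7, 75.2 and 87.8 CPM in WT and at 42.9, 45.9 and 51.3 CPM in 16GsoT/T. It fell by 0.82 ± 0.09 (adjusted p = 0.0099), with no overlap. None of the 14 tested GABA receptor genes was a DEG in the edgeR test, and 4 had an unadjusted p below 0.05, all of them with a higher mean in 16GsoT/T. DESeq2 called 3 GABA receptor genes, all higher.

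The following genes were among the 12 largest increases with a mean log2 CPM of at least 2. *Kcna2*, a potassium channel of axons, was at 19.5, 22.7 and 28.2 CPM in WT and at 42.6, 41.8 and 44.0 CPM in 16GsoT/T (0.87 ± 0.12, adjusted p = 0.026). *Igsf9b*, an adhesion protein of inhibitory synapses, rose by 0.92 ± 0.15 (adjusted p = 0.042). *Synj2*, a phosphatase of inositol lipids, rose by 0.80 ± 0.09 (adjusted p = 0.014) and *Dok6*, an adaptor of receptor tyrosine kinases, by 0.78 ± 0.11 (adjusted p = 0.029). *Zbtb20*, a transcription factor of hippocampal pyramidal neurons and of glia, was at 9.23, 9.47 and 9.005 CPM in WT and at 15.01, 19.2 and 20.1 CPM in 16GsoT/T. The groups lay far apart, and the increase was 0.97 ± 0.13 (adjusted p = 0.021). *P4ha3*, a collagen prolyl hydroxylase, rose by 0.87 ± 0.12 (adjusted p = 0.023), the uncharacterized *Gm2115* by 0.98 ± 0.16 (adjusted p = 0.042) and the pseudogene *Gm6969* by 1.11 ± 0.12 (adjusted p = 0.0099). Dropping 1 library at a time, *Gm6969* was called in 4 of 6 fits and *Zbtb20* in 3. *Kcna2*, *Synj2*, *P4ha3* and *Gm2115* were called in 2 of 6, *Igsf9b* in 1 and *Dok6* in 0.

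Genes of dentate granule cells had lower means in 16GsoT/T, but none was a DEG in the quasi-likelihood test. Of 16 tested, 15 were lower, and 9 had groups that did not overlap with the lower level in 16GsoT/T (11.6% of all genes tested). An unadjusted p below 0.05 with a lower mean was found for 10 of the 16, against 1356 of all 15227 genes tested. The median log2 fold change was -0.42, and it lay between -0.59 and -0.34 in the alternative fits. DESeq2 called 8 of the 16 and the exact test of edgeR 9, all lower. Over all genes, DESeq2 called 238 of 15726 lower and the exact test 277 of 15227. *C1ql2*, a secreted synaptic organizer of mossy fibres, was at 49.3, 56.2 and 33.6 CPM in WT and at 25.7, 25.9 and 19.5 CPM in 16GsoT/T (-0.97 ± 0.19, adjusted p = 0.061). *Dsp*, a desmosomal protein that marks mature granule cells, was at 57.0, 51.3 and 34.2 CPM in WT and at 27.3, 25.8 and 22.2 CPM in 16GsoT/T (-0.92 ± 0.18, adjusted p = 0.060). N6 was the lowest WT library for both genes. These 2 genes were named after their values were seen. With the offsets for GC content and length, 2 members of the list were DEGs, both lower.

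Among 21 tested genes of the granule cell lineage, from progenitors to mature cells, none was a DEG in the quasi-likelihood test, 3 had an unadjusted p below 0.05 with a higher mean and 5 with a lower one, and the median was -0.05. DESeq2 called 3 of the list and the exact test of edgeR 4, all lower, and without N6 the quasi-likelihood test called 3, all lower. *Prox1*, the transcription factor that specifies granule cells, was at 113, 109 and 79.1 CPM in WT and at 65.3, 66.7 and 77.9 CPM in 16GsoT/T (-0.52 ± 0.13, adjusted p = 0.106). *Neurod1*, of late progenitors and young granule cells, was at 64.0, 61.9 and 43.6 CPM in WT and at 42.4, 38.5 and 42.8 CPM in 16GsoT/T (-0.45 ± 0.14, adjusted p = 0.141). N6 was again the WT library closest to 16GsoT/T. *Dcx* (-0.08 ± 0.14) and *Eomes* (-0.42 ± 0.29), which mark young neurons and intermediate progenitors, overlapped between the groups.

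Of the remaining neuronal lists, all 8 CA1 genes had higher means in 16GsoT/T with a median of 0.27, and 1, *Man1a*, was a DEG. The median was 0.16 without A13 and 0.41 without A18, where 6 of the 8 were higher, and *Man1a* was called in 0 of 6 fits when 1 library was dropped. *Man1a*, a mannosidase of glycoprotein processing, was at 34.4, 27.7 and 29.8 CPM in WT and at 59.6, 43.9 and 48.4 CPM in 16GsoT/T (0.73 ± 0.13, adjusted p = 0.048). None of the 9 CA2, 7 CA3 or 6 mossy cell genes was a DEG in the edgeR test. An unadjusted p below 0.05 was found for 2 CA2 genes with a higher mean and 1 CA3 gene with a lower mean. It was also found for 1 mossy cell gene in each direction. Of 20 interneuron genes, *Reln* fell. *Reln* encodes reelin, a matrix protein secreted by Cajal-Retzius cells and interneurons. It was at 124, 137 and 130 CPM in WT and at 87.2, 86.5 and 59.5 CPM in 16GsoT/T (-0.75 ± 0.13, adjusted p = 0.048), with A18 lowest. *Reln* was called in 1 of 6 fits that left out 1 library, and not with the offsets for GC content and length.

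**Figure D5:**
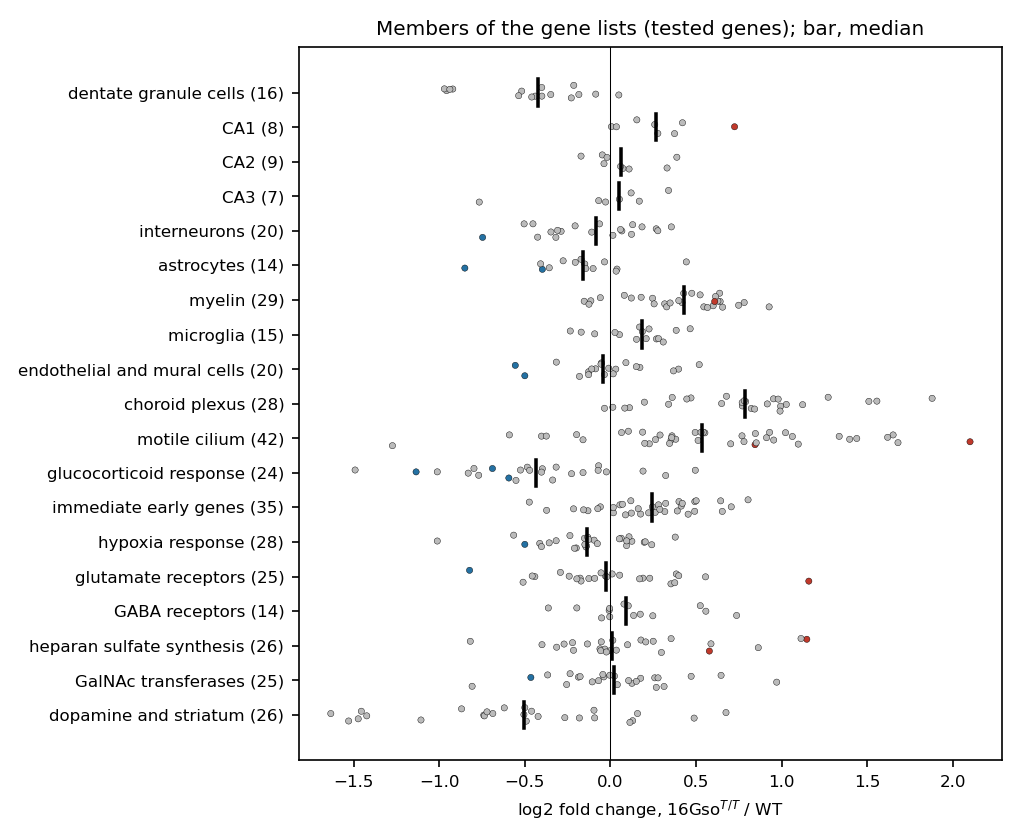
Log2 fold change of 16GsoT/T over WT (horizontal axis) for the tested members of 19 gene lists (rows, with the number tested), DEGs in red (higher) or blue (lower), other members in grey and the list median as a black bar. Medians lie at -0.42 for dentate granule cells, -0.44 for the glucocorticoid response, 0.43 for myelin, 0.54 for motile cilia and 0.79 for choroid plexus.

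The striatal list shows the weight of a single library. Of 26 tested genes of dopamine signalling and striatal neurons, 21 had lower means in 16GsoT/T and the median was -0.50, but none was a DEG in the edgeR test. An unadjusted p below 0.05 was found for 4 with a lower mean and 1 with a higher one, against 2669 of all 15227 genes tested. *Ppp1r1b*, which encodes the dopamine-regulated phosphatase inhibitor DARPP-32, was at 254 CPM in N4, at 34.0 and 33.7 CPM in N5 and N6, and at 39.4, 42.1 and 29.9 CPM in 16GsoT/T. *Drd2*, the D2 dopamine receptor, which is also found in hilar mossy cells, was at 12.6 CPM in N4, at 2.91 and 1.75 CPM in N5 and N6, and at 2.02, 2.34 and 1.81 CPM in 16GsoT/T. *Adora2a* and *Penk*, of the same striatal neurons as *Drd2*, were at 42.7 and 108 CPM in N4 and at no more than 6.31 and 21.7 CPM in the other libraries. Without N4, 15 of the 26 genes had higher and 11 had lower means, and the median was 0.10. Without N5 it was -0.76. Of the other genes of this list, *Foxp1* was at 17.3, 17.02 and 17.3 CPM in WT and at 20.5, 26.1 and 25.8 CPM in 16GsoT/T (0.49 ± 0.11, adjusted p = 0.084).

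Among glial and vascular genes, several markers fell. *Gjb6*, the connexin 30 of astrocyte gap junctions, was at 79.7, 78.7 and 96.0 CPM in WT and at 53.2, 43.5 and 44.5 CPM in 16GsoT/T (-0.85 ± 0.10, adjusted p = 0.016). *Aldoc*, an enzyme of glycolysis in astrocytes, fell by 0.40 ± 0.07 (adjusted p = 0.048). These were the 2 DEGs of 14 astrocyte genes, of which 11 had lower means, and the median was -0.16 (-0.26 without N5). *Mfsd2a*, a lipid transporter of brain endothelium, was at 69.8, 67.3 and 78.4 CPM in WT and at 51.4, 45.3 and 49.9 CPM in 16GsoT/T (-0.56 ± 0.08, adjusted p = 0.028). *Slc2a1*, the glucose transporter of the blood-brain barrier, fell by 0.50 ± 0.09 (adjusted p = 0.048). These were the 2 DEGs of 20 endothelial and mural genes, and *Slc2a1* was also the DEG among 28 genes of the hypoxia response (median -0.14). Of the 6 fits that left out 1 library, *Gjb6* was called in 4, *Mfsd2a* in 2, and *Aldoc* and *Slc2a1* in 0. With the offsets for GC content and length, *Gjb6* and *Mfsd2a* remained DEGs, and *Aldoc* and *Slc2a1* did not.

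Of 29 myelin genes, 25 had higher means in 16GsoT/T and the median was 0.43, with 1 DEG. *Enpp6*, which marks newly forming oligodendrocytes, was at 18.3, 19.03 and 21.1 CPM in WT and at 32.0, 30.6 and 26.6 CPM in 16GsoT/T (0.61 ± 0.10, adjusted p = 0.042). All 3 libraries of 16GsoT/T stood above WT for this gene. The summed level of the list was 6675, 4269 and 5923 CPM in WT and 10665, 7211 and 6548 CPM in 16GsoT/T, so A18 lay within the range of WT and A13 well above the others. The median was 0.15 without A13 and 0.26 without N5.

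Of 42 tested genes of motile cilia, the beating structures of ependymal cells, 2 rose, 36 had higher means and 22 had groups that did not overlap with the higher level in 16GsoT/T (12.2% of all genes tested). In the other direction, 6 had lower means and 4 of them had groups that did not overlap. DESeq2 called 7 higher and 1 lower, and the exact test of edgeR 12 higher and 2 lower. Over all genes, DESeq2 called 159 of 15726 higher and the exact test 256 of 15227. The median log2 fold change was 0.54. It was 0.42 without A14, 0.68 without N5 and 0.29 in the fit without N4 and N6. Summed over 47 genes, the list was at 318, 379 and 334 CPM in WT. In 16GsoT/T it was at 364, 387 and 377 CPM, so the groups overlapped. *Ccdc153*, a ciliary dynein-associated protein, was at 0.87, 1.55 and 2.02 CPM in WT and at 6.21, 5.37 and 7.60 CPM in 16GsoT/T, which is between 9 and 22 reads in WT and between 69 and 101 in 16GsoT/T. It rose by 2.10 ± 0.28 (adjusted p = 0.021). *Rsph1*, of the radial spokes of the cilium, was at 4.52, 5.64 and 5.05 CPM in WT and at 8.15, 9.74 and 9.48 CPM in 16GsoT/T (0.84 ± 0.15, adjusted p = 0.048). When 1 library was dropped, *Ccdc153* was called in 2 of 6 fits and *Rsph1* in 0 of 6. *Foxj1*, the transcription factor of motile ciliogenesis, was at 7.69, 12.7 and 7.08 CPM in WT and at 16.6, 17.8 and 17.2 CPM in 16GsoT/T (0.91 ± 0.20, adjusted p = 0.076), and was named after its values were seen.

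The choroid plexus, which carries cilia as well, had no DEG among 28 tested genes in the edgeR test, and 2 had an unadjusted p below 0.05. Of the 28, 27 had higher means and the median was 0.79, but no member had groups that did not overlap. The median was 0.32 without A14, 0.47 without N6, 1.21 without A18 and 1.30 without N5. Without A18, 2 members were called higher. In the fit without A13 and A14, 25 of the 28 had lower means and the median was -0.83. *Ttr*, its transthyretin, was at 409, 883 and 98.2 CPM in WT and at 1028, 1731 and 76.1 CPM in 16GsoT/T, with the lowest value in a 16GsoT/T library. In A18, where this list was at its lowest, *Ccdc153* was at 7.60 CPM and *Foxj1* at 17.2 CPM, near or above their levels in A13 and A14. These are 2 of the 42 cilium genes, and a contribution of choroid plexus tissue to the cilium values was not tested.

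To show the sequence at which the factors of ciliary genes bind, RefSeq promoters (GRCm38.p6, 250 bases before to 50 after the start) were searched on both strands for the X-box, spelled as GTTNCC and GNNAAC with 2 bases between them, or as GTTNCC and GNAAC with 2 or 1 bases between them. In all, 3 sets of spellings were tried, and this set was chosen after their matches had been seen; it was the only one that matched *Ccdc153*. Of 33 tested cilium genes with a promoter, 7 held a match, as did 1.81% of all 27025 genes with a promoter. A stricter set matched 6 of the 33 (1.42% of all genes) and the short spelling GTTGCCA 9 (5.02%). A match is no sign of binding, and the matched genes differed in direction. Shown here, on the strand of the gene, are 30 bases around the match (in capitals), which in *Ccdc113* and *Tekt2* reads as the spelling only on the opposite strand. The genes are *Ccdc153* (chr9:44240517-44240546, plus strand), *Ccdc113* (chr8:95534078-95534107, plus strand), *Iqca* (chr1:90153515-90153544, minus strand) and *Tekt2* (chr4:126325696-126325725, minus strand).
Ccdc153: gttttccaGTTGCCTGGACAACgtgcagta
Ccdc113: agcgttcaGTTGTCTAGGCAACgcgcctca
Iqca: gccttgcaGTTGCCACGGAAACggaaacat
Tekt2: agggggcgGTTGCTCGGCAACcagagccgc
The log2 fold changes of these genes were 2.10 for *Ccdc153*, 1.10 for *Ccdc113* (adjusted p = 0.131), 0.93 for *Iqca* (adjusted p = 0.248) and -0.59 for *Tekt2* (adjusted p = 0.340). The matched genes not printed had smaller changes. They were *Dnaic1* (0.35, adjusted p = 0.476), *Dnaic2* (0.51, adjusted p = 0.306) and *Ccdc151* (-0.16, adjusted p = 0.725).

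Of 24 tested genes of the glucocorticoid response, 3 fell in the quasi-likelihood test, 21 had lower means and 14 had groups that did not overlap with the lower level in 16GsoT/T (11.6% of all genes tested). DESeq2 called 9 lower and 1 higher, and the exact test of edgeR 11 lower and 1 higher. Over all genes, DESeq2 called 238 of 15726 lower and the exact test 277 of 15227. The median log2 fold change was -0.44 and lay between -0.50 and -0.40 in the alternative fits, while without A14, N4 or N5 no member was a DEG. The summed level of the list was 1388 to 1456 CPM in WT and 1095 to 1222 CPM in 16GsoT/T. *Fkbp5*, a chaperone of the glucocorticoid receptor that the receptor itself induces, was at 77.6, 79.4 and 79.4 CPM in WT and at 52.5, 51.7 and 42.5 CPM in 16GsoT/T (-0.69 ± 0.09, adjusted p = 0.016). *Tsc22d3*, the leucine zipper protein induced by glucocorticoids, was at 101, 101 and 119 CPM in WT and at 73.8, 74.6 and 64.1 CPM in 16GsoT/T (-0.59 ± 0.09, adjusted p = 0.029). *Sult1a1*, a sulfotransferase, was at 14.6, 17.9 and 19.6 CPM in WT and at 9.28, 8.02 and 6.47 CPM in 16GsoT/T (-1.13 ± 0.16, adjusted p = 0.027).

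*Nr3c1*, the glucocorticoid receptor, had the opposite sign to most of that list. It was at 64.7, 54.98 and 65.2 CPM in WT and at 84.7, 79.7 and 96.4 CPM in 16GsoT/T (0.50 ± 0.09, adjusted p = 0.058), and was named after its values were seen. Of 20 tested members with a promoter, 1, *Sgk1*, held the full palindrome of the receptor, AGAACA and TGTTCT with 3 bases between them, which occurred in 0.0111% of genes with a promoter. A shorter spelling, ACA and TGTTC with 3 bases between them, matched 2 of the 20 (1.12% of all genes). It is shown because the list turns on this receptor, in 30 bases at chr10:21993694-21993723 (GRCm38.p6, plus strand) with the palindrome in capitals.
Sgk1: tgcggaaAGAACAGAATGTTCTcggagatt
*Sgk1* was at 70.5, 67.1 and 82.1 CPM in WT and at 65.0, 67.9 and 63.8 CPM in 16GsoT/T, with overlap (-0.16 ± 0.08, adjusted p = 0.350). *Hif3a*, an inhibitor of the hypoxia response that glucocorticoids induce, was at 13.2, 18.3 and 20.2 CPM in WT and at 8.64, 6.46 and 10.5 CPM in 16GsoT/T (-1.01 ± 0.21, adjusted p = 0.068). *Prodh*, proline dehydrogenase, had a log2 fold change of -0.63 ± 0.12 (adjusted p = 0.057).

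*Hbegf*, an epidermal growth factor receptor ligand of astrocytes and neurons, was at 32.2, 33.0 and 32.3 CPM in WT and at 14.6, 18.5 and 14.5 CPM in 16GsoT/T. It fell by 1.03 ± 0.11 (adjusted p = 0.0099), and the WT libraries differed by less than 1 CPM. Immediate early genes, which neuronal activity induces, held no DEG among 35 tested in the edgeR test. An unadjusted p below 0.05 was found for 7 with a higher mean and 2 with a lower one, against 2669 of all 15227 genes tested. Of these 35, 28 had higher means, with a median of 0.25. The median was 0.12 without N5 and 0.40 without N6, where 3 genes were called higher, and DESeq2 called 2 higher with all libraries. *Fos* was at 9.33, 7.37 and 31.8 CPM in WT and at 22.5, 24.5 and 28.8 CPM in 16GsoT/T (0.64 ± 0.45, adjusted p = 0.487), so a single WT library, N6, exceeded all 3 of 16GsoT/T. Without N6 the log2 fold change of *Fos* was 1.60 and the adjusted p 0.011.

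The 4 tested genes of the Y chromosome all fell. *Eif2s3y*, a translation initiation factor subunit, was at 96.4, 101 and 114 CPM in WT and at 45.3, 40.7 and 49.98 CPM in 16GsoT/T (-1.20 ± 0.09, adjusted p = 0.0044). *Kdm5d*, a histone demethylase, was at 49.4, 55.2 and 47.4 CPM in WT and at 23.2, 20.7 and 25.2 CPM in 16GsoT/T (-1.14 ± 0.10, adjusted p = 0.0049). *Uty* (-0.84 ± 0.09, adjusted p = 0.0099) and *Ddx3y* (-0.82 ± 0.09, adjusted p = 0.014), named after their values were seen, followed. *Xist* was between 0.55 and 1.13 CPM in all 6 libraries and *Eif2s3x*, the X-linked counterpart of *Eif2s3y*, was at 107 to 116 CPM in all 6 libraries (0.04 ± 0.06, adjusted p = 0.770).

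Among genes with a mean log2 CPM of at least 2, *Gm8615* and the genes after it had the largest decreases. *Gm8615*, a pseudogene at chr5:149967022-149967657 on the minus strand (NCBIM37), had 94, 90 and 102 reads in WT and 1 read in each 16GsoT/T library. The ratio of WT to 16GsoT/T was 113 (95% exact interval 38.2 to 550, counting error only). Reads of a pseudogene can be shared with its parent gene, so this level is uncertain. *Myo7a*, an unconventional myosin of sensory hair cells, was at 11.9, 12.7 and 15.1 CPM in WT and at 2.99, 2.18 and 3.24 CPM in 16GsoT/T (-2.23 ± 0.18, adjusted p = 0.0044). The unnamed transcript *LOC100503910* was at 97.4, 55.5 and 57.9 CPM in WT and at 21.1, 18.5 and 19.5 CPM in 16GsoT/T (-1.84 ± 0.21, adjusted p = 0.013). *Sox2ot*, a noncoding RNA that overlaps *Sox2*, was at 26.0, 22.4 and 14.1 CPM in WT and at 9.36, 5.14 and 6.32 CPM in 16GsoT/T (-1.58 ± 0.27, adjusted p = 0.044). *Sox2ot* was called in 1 of 6 fits that left out 1 library, and not with the offsets for GC content and length.

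*Sec24d*, of the coat of vesicles that leave the endoplasmic reticulum, fell by 1.28 ± 0.22 (adjusted p = 0.048) with WT libraries from 19.1 to 38.1 CPM and 16GsoT/T libraries from 11.5 to 12.99 CPM. *Thpo*, thrombopoietin, fell by 0.98 ± 0.17 (adjusted p = 0.048), *Thrsp*, a regulator of lipid synthesis, by 0.91 ± 0.16 (adjusted p = 0.049) and *Ccbe1*, a secreted factor of lymphatic growth, by 0.88 ± 0.13 (adjusted p = 0.028). None of these 4 genes had overlapping groups. Dropping 1 library at a time, *Thpo* and *Ccbe1* were called in 2 of 6 fits and *Sec24d* and *Thrsp* in 1 of 6. With the offsets for GC content and length, *Sec24d*, *Thpo* and *Thrsp* were not DEGs.

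P14 CB was measured in separate libraries. Of the 124 DEGs of HC, 25 were DEGs in CB as well, which is 20.2% of the HC list and 30.9% of the 81 DEGs of CB. Of the 16398 genes tested over the libraries of both regions, 80 were DEGs in CB. All 25 were lower in 16GsoT/T in both regions, and no DEG was opposite. Of the genes tested in both, 56 of the 66 DEGs that fell in HC and 39 of the 53 that rose had the same sign in CB. The share of all tested genes with the same sign was not computed. *Wbscr17* had a log2 fold change of -1.05 ± 0.09 in CB, *Fkbp5* of -1.12 ± 0.11, *Eif2s3y* of -1.08 ± 0.06 and *Gjb6* of -0.63 ± 0.10, all DEGs there. *Grin2b* (0.11 ± 0.12, adjusted p = 0.872), *Grm2* (0.21 ± 0.19, adjusted p = 0.826) and *Auts2* (-0.13 ± 0.08, adjusted p = 0.694) were not DEGs in CB.

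The difference between regions was tested directly as an interaction over 12 libraries. None of 16398 genes passed in the edgeR test (0%), 1509 had an unadjusted p below 0.05, and DESeq2 called 89. For *Grin2b* the effect in HC exceeded that in CB by 1.05 ± 0.18 (adjusted p = 0.122), for *Wbscr17* the 2 effects differed by 0.59 ± 0.10 (adjusted p = 0.122) and for *Auts2* by -0.38 ± 0.12 (adjusted p = 0.346). The effects were not shown to differ between regions. Without the 16GsoT/T CB library 4, 22 genes passed, *Grin2b*, *Kcna2* and *Man1a* among them.

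Between P14 and P35 HC, 1 of 15010 genes passed the interaction test (0.00666%), the pseudogene *Gm6969*. Of the 15010 genes tested over both ages, 18 were DEGs at P35. Of the 124 DEGs of P14, 2 were among them (11.1% of the 18), *Gm6969* and *Sec24d*, each in the same direction. Of the genes tested at both ages, 53 of the 64 DEGs that fell at P14 and 22 of the 55 that rose had the same sign at P35. The share of all genes with the same sign at both ages was not computed either. *Sec24d* fell by 1.603 ± 0.205 at P35 (adjusted p = 0.0043). *Wbscr17* had a log2 fold change of -0.62 ± 0.13 at P35 (adjusted p = 0.120), and its difference between the ages was 0.15 ± 0.15 (adjusted p = 0.736). *Grin2b* was at -0.78 ± 0.34 at P35 (adjusted p = 0.526), and its difference of 1.95 ± 0.42 between the ages had an adjusted p of 0.129. The Y-linked genes *Eif2s3y* (-0.17 ± 0.16, adjusted p = 0.845) and *Kdm5d* (-0.42 ± 0.24, adjusted p = 0.672) were not DEGs at P35. Their differences between the ages were -1.03 ± 0.20 (adjusted p = 0.122) and -0.71 ± 0.29 (adjusted p = 0.379). The P35 libraries held between 2563968 and 4127478 reads on genes, fewer than those of P14. Without the WT library N10 of P35, 67 genes passed the interaction test.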

How the data were processed

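The authors deposited whole-number read counts per gene symbol. Per the submitters' notes and methods, reads were processed with CASAVA 1.8.2, mapped with TopHat2 2.0.8 to NCBIM37 and counted with HTSeq 0.6.1. The kit is named as TruSeq Stranded mRNA in the labels and as KAPA Stranded mRNA-Seq in the methods. Between 40.7% and 42.3% of the reads of the 6 libraries fell on genes. Lines for reads without a gene were left out.

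In R 4.3.3, counts were filtered with filterByExpr (minimum 10, total 15), scaled by TMM and fitted with the quasi-likelihood test of edgeR 4.0.16, with Benjamini-Hochberg adjustment over all genes tested. The design took the 6 libraries of P14 HC, and interactions took 12. Alternatives were DESeq2 1.42.0, the exact test of edgeR, other scaling and filters, a fit of all P14 libraries and leaving out each library. Offsets for GC content and length, and fits without N4 and N6 or without A13 and A14, were added after the data had been seen. Promoters were searched for several spellings of motifs, among them ACGTG of the hypoxia response (16 of 23 tested genes, 21.8% of all genes), and those printed were chosen after their matches were seen. The code was tested on simulated data. Single genes over 3 against 3 libraries cannot go below p = 0.1 in an exact permutation test, so none is given. Counts without molecular identifiers give intervals for counting error only. Replicate libraries of a group differed by more than sampling noise. Nothing beyond the identifiers says that the libraries came from separate animals, so p-values measure the spread between these samples.

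Named genes were the breakpoint neighbours, 5 genes of interest in both regions, the 12 largest increases and decreases with a mean log2 CPM of at least 2 and no overlap, up to 6 DEGs of each list, members of the granule cell, mossy cell and striatal lists, and the largest interactions. The comparison and the 32 lists were chosen with earlier results of these data known. The result for 1 gene is not reported here.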

Additional observations from a re-analysis of the deposited data

Results flagged for a closer look

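The pseudogene *Gm6969* was the only gene whose genotype effect differed between P14 and P35 HC by the interaction test of edgeR, with a difference of -9.37 ± 0.83 on the log2 scale (adjusted p = 0.00069). At P14 it had 92, 111 and 83 reads in WT and 243, 246 and 249 in 16GsoT/T. At P35 it had 0 reads in all 3 WT libraries and 125, 44 and 73 in 16GsoT/T, which is at least 90.3-fold higher than the floor of 3 counts over the WT group. The fitted value depends on the prior count and is no bound. In P14 CB it had 148 to 388 reads in WT and 475 to 757 in 16GsoT/T. Reads of this pseudogene may be shared with other copies, and this was not tested.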

How the results depend on the processing

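The number of DEGs in P14 HC was 124 with the quasi-likelihood test of edgeR, 397 with DESeq2 (123 of the 124 among them), 533 with the exact test of edgeR (all 124) and 326 in a single fit of the 12 P14 libraries (114). It was 72 with offsets for GC content and length and 72 with a fold of at least 1.5. Leaving out a library gave 13 to 114, the lowest without A14. Leaving out N4 and N6 gave 3, and leaving out A13 and A14 gave 11. These last 2 fits and the offsets were chosen after seeing the data, and each lone library was assumed to vary like the other group. The interaction with region had 0 genes, 89 with DESeq2 and 0 to 22 without a library, the highest without 16GsoT/T CB library 4. The interaction with age had 1 gene, 115 with DESeq2, 1 to 67 without a library and 0 without both W481 and W483. It had 67 without N10, 8 without B11, 3 without A18 and 2 without B12. The cause of these differences was not tested. Of 625 values of named genes under the alternatives, 398 stayed on their side of the threshold, 218 lost the call, 9 gained it and 0 changed direction. Of 480 medians of lists, 42 moved by more than the spread between replicates. No paired analysis was possible because the groups compared share no replicate numbers.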

Other observations

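*Gm8615*, which had 1 read in each 16GsoT/T library of P14 HC, differed among the P35 HC libraries of 16GsoT/T. It had 36 reads in B10, 0 in B11 and 27 in B12, against 30 to 41 in the 3 WT libraries. *Gm5801*, another pseudogene (chr14:56629373-56630188, NCBIM37), had 24, 27 and 28 reads in WT at P14 and 0, 1 and 0 in 16GsoT/T, a ratio of 93.4 with a 95% exact interval of 16.3 to 3733. At P35 it had 0 reads in all 16GsoT/T libraries and 4 to 11 in WT. Both pseudogenes were DEGs in P14 CB as well, lower in 16GsoT/T. These genes were chosen after their values were seen.

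Microglia genes and genes of DNA replication and mitosis held no DEG in the edgeR test. An unadjusted p below 0.05 was found for 2669 of all 15227 genes tested. Of 15 microglia genes 12 had higher means in 16GsoT/T, with a median log2 fold change of 0.19 and 5 at an unadjusted p below 0.05. That median was 0.02 without A18, 0.08 without N5, 0.11 without N6 and 0.32 without N4. Of 33 replication and mitosis genes 24 had higher means, with a median of 0.14 and 4 at an unadjusted p below 0.05. It was 0.22 without A13 and 0.21 without N4.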
